A study of Mus musculus with 6 samples.

Results

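10 genes best known from cytotoxic lymphocytes are described here, as they were measured in endothelial cells sorted from the bone marrow of diabetic and nondiabetic mice. They are Ctsw, Gzma, Prf1, Nkg7, Klrd1, Ncr1, Cd3e, Cd8a, Il7r and Il2rb, 10 of the 22180 genes that the array measures with a probe set naming no other gene. The list was drawn up around Ctsw after the difference of Ctsw between the groups was known, so the values of the 10 genes in this contrast are a description and carry no test. All 10 had exactly 1 such probe set. Ctsw lies on chromosome 19, Gzma on 13, Prf1 on 10, Nkg7 and Ncr1 on 7, Klrd1 and Cd8a on 6, Cd3e on 9, and Il7r and Il2rb on 15. Of 6 arrays, 3 carried cells of diabetic male C57BL/6J mice, in which a high fat diet had induced the disease, and 3 carried cells of nondiabetic male C57BL/6J mice labelled as controls. The same feeding text (60 kcal% fat, 4 months) stands on all 6 samples, which leaves the diet of the nondiabetic mice unstated. Each array carried the amplified RNA of 5000 endothelial cells sorted by flow cytometry. Whether each array stands for its own mouse is not labelled, so intervals measure the spread between these arrays, which may be technical.

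Cytotoxic lymphocytes, which are CD8 T cells and natural killer (NK) cells, kill a target cell by emptying granules into the space between the cells. Perforin, the product of Prf1, opens the target membrane, and granzymes such as the one encoded by Gzma are serine proteases that enter and cleave proteins there. Ctsw encodes cathepsin W, a cysteine protease related to the lysosomal cathepsins and found mainly in CD8 T and NK cells, and Nkg7 encodes a membrane protein of the granules. T cells read antigen through the receptor complex that contains CD3 epsilon (Cd3e), with CD8 alpha (Cd8a) as co-receptor, while NK cells use receptors such as CD94 (Klrd1) and NKp46 (Ncr1). The interleukin 7 receptor (Il7r) and the beta chain shared by the receptors for interleukin 2 and interleukin 15 (Il2rb) carry the survival signals of lymphocytes. In bone marrow Il7r also marks early lymphoid cells.

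Promoter sequence is shown for 3 of the genes because their values stand on either side of the limit used for dim genes and yet their windows share a short motif. Windows from 250 bases before to 50 bases after a transcription start were held by the RefSeq table of GRCm38.p6 for 7 of the 10 genes, and Ctsw, Klrd1 and Il2rb were not among them. In the sequences below, read 5′ to 3′ along the gene, capitals mark the letters searched for RUNX factors (TGTGGT, or ACCACA on the other strand) and for ETS factors (GGAAGT, or ACTTCC on the other strand). The windows are chr7:43436888-43437187 on the plus strand for Nkg7, chr13:113100932-113101231 on the minus strand for Gzma and chr15:9529827-9530126 on the minus strand for Il7r.
Nkg7: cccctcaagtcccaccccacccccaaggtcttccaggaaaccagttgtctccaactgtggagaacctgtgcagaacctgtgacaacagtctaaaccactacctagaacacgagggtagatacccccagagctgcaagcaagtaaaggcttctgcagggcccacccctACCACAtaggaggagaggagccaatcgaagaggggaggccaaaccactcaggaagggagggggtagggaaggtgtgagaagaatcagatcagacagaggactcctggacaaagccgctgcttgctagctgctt
Gzma: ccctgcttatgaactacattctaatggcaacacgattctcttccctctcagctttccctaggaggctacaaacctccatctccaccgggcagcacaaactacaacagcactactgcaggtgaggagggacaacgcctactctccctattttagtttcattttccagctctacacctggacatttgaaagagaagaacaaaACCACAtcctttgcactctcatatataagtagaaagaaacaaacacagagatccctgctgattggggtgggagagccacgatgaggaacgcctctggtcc
Il7r: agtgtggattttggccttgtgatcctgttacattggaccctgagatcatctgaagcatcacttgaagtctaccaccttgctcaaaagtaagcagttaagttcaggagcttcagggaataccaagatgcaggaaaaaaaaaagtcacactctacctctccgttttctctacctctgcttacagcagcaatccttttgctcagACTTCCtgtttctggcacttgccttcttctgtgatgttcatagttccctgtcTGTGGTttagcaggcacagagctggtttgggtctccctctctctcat

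The RUNX letters stood in the windows of 5 of these 7 genes, Gzma, Prf1, Nkg7, Ncr1 and Il7r, while 16.8% of all 32851 promoter windows held them. Relative to the annotated start, the first base of the match lay at -83 in Nkg7, at -50 in Gzma and at 3 in Il7r. The ETS letters stood in 3 windows, those of Prf1, Cd3e and Il7r, against 23.8% of all windows. The T-box letters GGTGTGA, read on both strands, stood in 1 window, that of Nkg7, against 3.98% of all windows. The STAT5 letters TTCNNNGAA, in which N is any base, stood in 2 windows, those of Nkg7 and Il7r, against 8.3% of all, and the GATA letters AGATAA in 0 of 7, against 11.2% of all. None of the matches in the printed windows overlapped another. A match of letters is a description of these windows and not a site shown to be bound. The window of Gzma, a gene below the limit, held the RUNX letters like those of Nkg7 and Il7r, which were above it.

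Where the genes stood against a common limit of signal was looked at first. A gene was treated as dim where its mean over the 6 arrays lay under a log2 value of 5.07, the 40th percentile of all genes, which left 13308 genes for testing. This limit is a filter and not a detection test. The counts below set different probe sets against the same limit, so they describe signal and do not show which genes were present or absent. Of the 10 genes, 6 were tested (Ctsw, Prf1, Nkg7, Ncr1, Il7r and Il2rb) and 4 were dim (Gzma, Klrd1, Cd3e and Cd8a). Nearest the limit stood Cd8a just below it, with a mean of 4.94, and Il2rb just above it, with a mean of 5.34. Of 18 measured genes on a list of T and NK cell markers, which holds 7 of the 10 genes, 8 reached the limit and 10 did not. Cd3d, Cd3g and Zap70, which belong to the T cell receptor complex and its signaling, stayed under it on all 6 arrays, as did Cd3e, Klrd1 and Gzma. Gzmb, Nkg7, Ccl5, Ncr1 and Cd5 of the same list were at or over it on all 6 arrays. Of the endothelial markers, 20 of 20 reached it, and Cdh5, the cadherin of endothelial junctions, averaged 10.88 in diabetic and 10.98 in nondiabetic cells on the log2 scale. Among the markers of basophils and mast cells 11 of 16 reached it, and Prss34, a basophil protease, averaged 11.39 in diabetic and 11.29 in nondiabetic cells. The markers thus fell on both sides of the limit, and cytotoxic lymphocytes are named here for what the genes are known for, without a statement on whether such cells were in the samples. In bulk RNA, fewer cells of a type and less RNA per cell cannot be told apart.

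**Figure D1:**
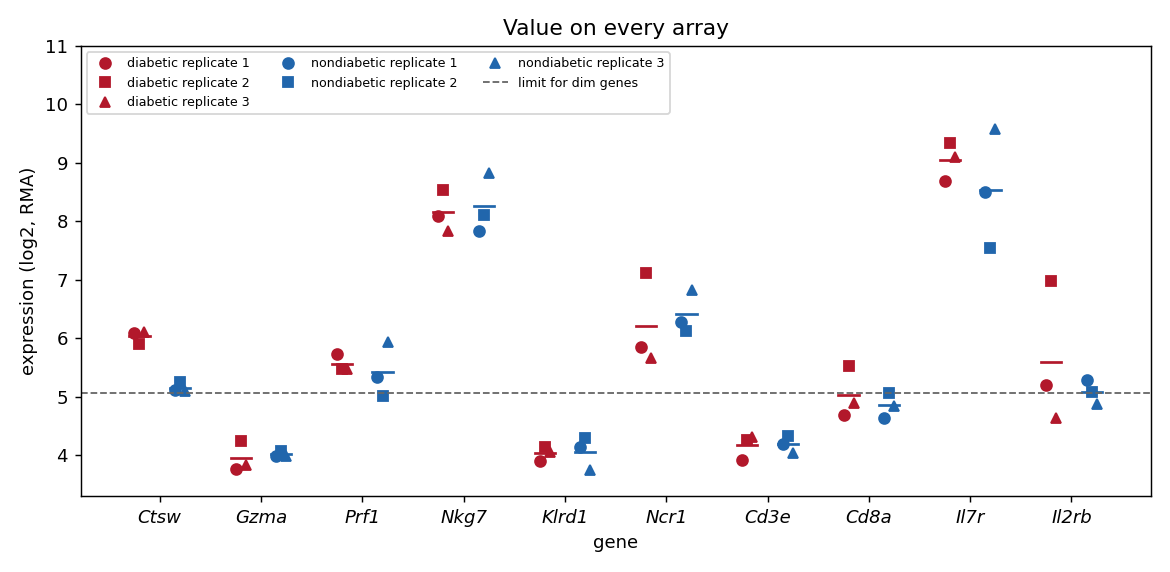
Log2 expression (vertical axis) of the 10 genes (horizontal axis) on each of the 3 diabetic arrays (red) and 3 nondiabetic arrays (blue), with replicates told apart by symbol, group means as short bars and the limit for dim genes of 5.07 as a dashed line. The diabetic and nondiabetic arrays are apart in Ctsw and overlap in the other 9 genes.

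Ctsw was the gene of the list with separate groups. It stood at 6.09, 5.91 and 6.10 on the diabetic arrays, against 5.11, 5.26 and 5.11 on the nondiabetic arrays. Every diabetic array lay above every nondiabetic array, and the lowest diabetic value exceeded the highest nondiabetic value by 0.65. Diabetic cells averaged 6.03 ± 0.11 and nondiabetic cells 5.16 ± 0.09 (SD, n = 3 each). The groups differed by 0.88 (SE 0.15, 95% interval 0.54 to 1.22), which is 1.84-fold. The nondiabetic values lay just over the limit of 5.07 on all 3 arrays. Leaving out any 1 array gave differences between 0.84 and 0.94.

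Among the 10 genes, 1 had all diabetic above all nondiabetic arrays and 0 had the opposite, where 4.49% and 3.76% of all 22180 measured genes did so. Among the 6 tested genes these counts were also 1 and 0, where the shares of the 13308 tested genes were 5.28% and 2.67%. Of the 6, 0 passed limma's fit across all tested genes at an adjusted p under 0.05, where 0.00751% of tested genes passed. That share is 1 gene, Rabggtb, which was lower in diabetic cells and belongs to none of the lists. These shares are background only, since Ctsw was chosen for this contrast. In the RefSeq table the span of Ctsw overlaps, at its edge, that of Fibp, which encodes an intracellular binding protein of a fibroblast growth factor. Fibp stood at 7.76, 7.38 and 7.29 on the diabetic arrays and at 7.34, 7.62 and 6.74 on the nondiabetic arrays. Its groups overlapped, with a difference of 0.24 (SE 0.25).

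**Figure D2:**
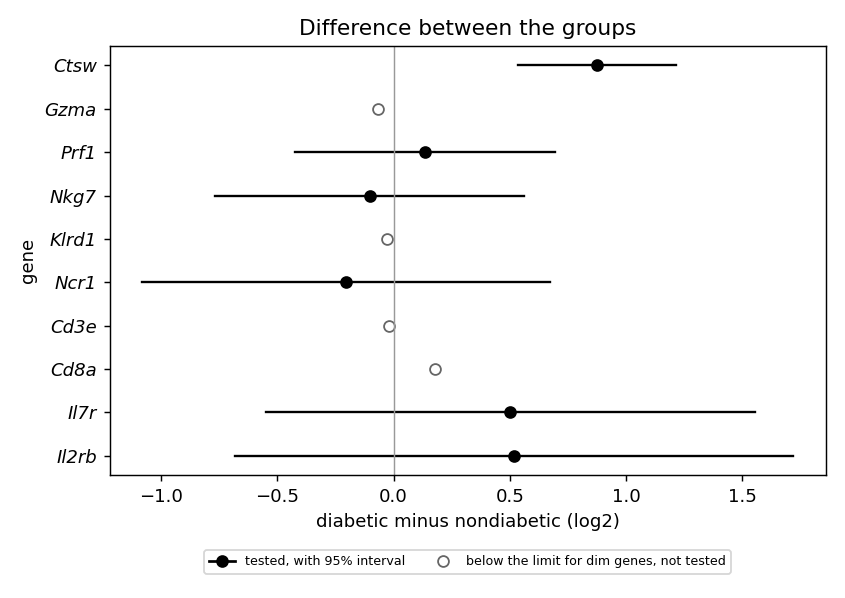
Difference between diabetic and nondiabetic means (log2, horizontal axis) for each of the 10 genes (vertical axis), with the 95% interval of the limma fit for the 6 tested genes and open points for the 4 dim ones. The interval leaves out 0 for Ctsw and includes it for the other 5 tested genes. Intervals are not adjusted, and Ctsw was chosen for this contrast, so its interval is a description and not a test.

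The other granule genes did not follow Ctsw. Prf1 stood at 5.74, 5.47 and 5.47 on the diabetic arrays, against 5.34, 5.01 and 5.93 on the nondiabetic arrays, and the groups overlapped. Its difference of 0.13 (SE 0.24) had a 95% interval of -0.42 to 0.69, and it was -0.08 without nondiabetic replicate 2 and 0.39 without nondiabetic replicate 3. Diabetic replicates 2 and 3 gave the same Prf1 value to every deposited decimal, as 42 of 41345 probe sets did between these arrays. The array carries a further probe set that names Prf1 together with the mitochondrial gene COX2. It read 12.13 on average in diabetic and 12.16 in nondiabetic cells, and it was not used.

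Nkg7 stood at 8.09, 8.54 and 7.83 on the diabetic arrays and at 7.83, 8.12 and 8.83 on the nondiabetic arrays. The ranges overlapped almost wholly, and the difference was -0.10 (SE 0.29, 95% interval -0.77 to 0.56). It was -0.32 without nondiabetic replicate 1 and 0.18 without nondiabetic replicate 3. Gzma read 3.77, 4.25 and 3.83 in diabetic and 4.00, 4.07 and 3.99 in nondiabetic cells, under the limit on all 6 arrays.

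Of Ncr1, Klrd1, Cd3e and Cd8a, Ncr1 varied most between the diabetic arrays. It stood at 5.85, 7.12 and 5.66 on the diabetic arrays, against 6.29, 6.13 and 6.83 on the nondiabetic arrays. Diabetic replicate 2 was the highest array and the other diabetic arrays were the lowest, so that the difference of -0.20 (SE 0.38) was -0.66 without diabetic replicate 2 and 0.07 without diabetic replicate 3. Klrd1 lay between 3.90 and 4.15 in diabetic and between 3.75 and 4.30 in nondiabetic cells. Cd3e lay between 3.92 and 4.32 in diabetic and between 4.04 and 4.32 in nondiabetic cells, and neither gene reached the limit on any array. Cd8a stood at 4.68, 5.52 and 4.89 in diabetic and at 4.65, 5.07 and 4.85 in nondiabetic cells. It reached the limit on replicate 2 of each group and on no other array, and its difference of 0.18 was -0.07 without diabetic replicate 2.

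The cytokine receptor genes had the widest ranges of the list. Il7r stood at 8.69, 9.33 and 9.11 on the diabetic arrays, against 8.50, 7.54 and 9.58 on the nondiabetic arrays. Nondiabetic replicate 2 was the lowest and nondiabetic replicate 3 the highest of all 6. Il7r averaged 9.04 ± 0.33 in diabetic and 8.54 ± 1.02 in nondiabetic cells (SD, n = 3 each). The difference of 0.50 (SE 0.46, 95% interval -0.55 to 1.55) was 0.0012 without nondiabetic replicate 2 and 1.02 without nondiabetic replicate 3.

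Il2rb stood at 5.20, 6.97 and 4.63 on the diabetic arrays and at 5.29, 5.08 and 4.88 on the nondiabetic arrays. Diabetic replicate 2 stood alone, and the diabetic arrays included both the highest and the lowest value. Il2rb averaged 5.60 ± 1.22 in diabetic and 5.08 ± 0.21 in nondiabetic cells (SD, n = 3 each). The difference of 0.52 (SE 0.52, 95% interval -0.68 to 1.72) was -0.17 without that array, whose removal put the mean of Il2rb under the limit.

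**Figure D3:**
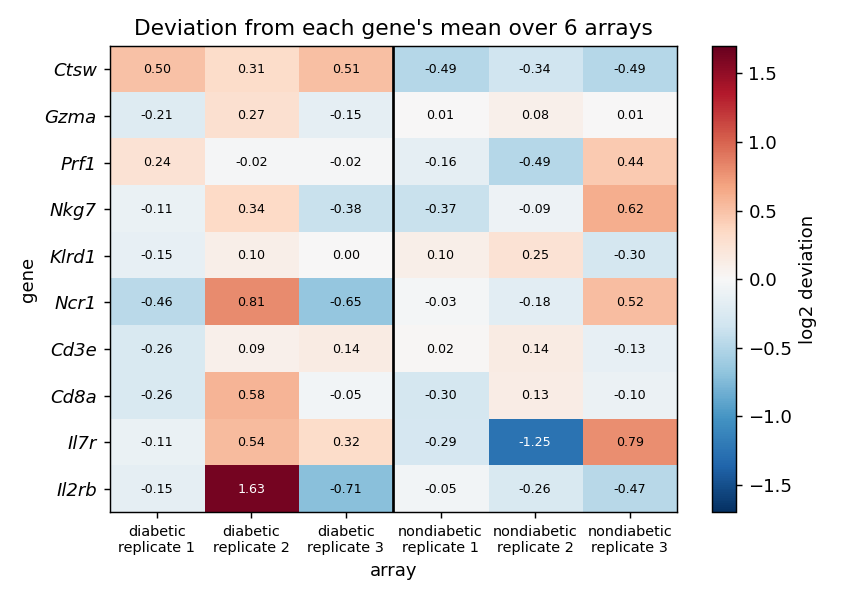
Deviation of each array (columns, the diabetic arrays left of the line) from the gene's mean over the 6 arrays (log2, colour and printed value) for the 10 genes (rows). Diabetic replicate 2 is high in Il2rb, Ncr1 and Cd8a, and nondiabetic replicate 3 is high in Il7r and Nkg7. Ctsw alone is above its mean on all 3 diabetic arrays and below it on all 3 nondiabetic arrays.

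Some pairs of the genes varied together from array to array, and Ctsw was in none of these pairs. Diabetic replicate 2 held the highest value of 4 genes (Gzma, Ncr1, Cd8a and Il2rb), nondiabetic replicate 3 that of 3 genes (Prf1, Nkg7 and Il7r), and other arrays that of the remaining 3. Over the 6 arrays, Pearson's r between pairs of the 10 genes was over 0.7 for 8 of 45 pairs and under -0.7 for 3 pairs. The pairs over 0.7 included Prf1 with Il7r (0.82), Nkg7 with Ncr1 (0.81), and Il2rb with the dim Cd8a (0.78). They also included pairs with genes under the limit on all 6 arrays, such as Gzma with Ncr1 (0.83) and Klrd1 with Cd3e (0.78). All 3 pairs under -0.7 held Klrd1 or Cd3e, which were under the limit too. The share of such pairs among all genes was not counted. Between Ctsw and each of the other 9 genes r lay between -0.35 and 0.26. These are descriptions over 6 arrays that share a platform and a preparation, and no test was made of them.

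Diabetic replicate 2, the highest array in Il2rb and Ncr1, was also the highest in Klrk1, Xcl1 and Gzmc, picked here from the pathway lists after their values were seen. It was not the highest in most genes of those lists: it held the highest value of 3 of 12 tested NK receptor and adaptor genes and of 3 of 20 tested granule genes, where nondiabetic replicate 3 held that of 4 and 6. With dim genes such as Klrk1 counted, it held that of 6 of 24 and 4 of 26, against 7 and 8 for nondiabetic replicate 3. Among 18 measured T and NK markers it held the highest value of 7, more than any other array, but most of these were dim. Gzma and Cd3d among them were under the limit on every array. Of the 8 tested T and NK markers it held the highest value of 2, as did nondiabetic replicates 2 and 3. Klrk1, which encodes the NK receptor NKG2D, read 4.20, 6.28 and 4.77 in diabetic and 4.26, 4.89 and 4.16 in nondiabetic cells. It passed the limit on diabetic replicate 2 only. That array exceeded the next highest by 1.68 in Il2rb and by 1.39 in Klrk1, and it stood more than 1 above all others in 23 of 22180 genes. Xcl1, a chemokine made by NK and CD8 T cells, followed Ncr1 with r = 0.90 and stood at 6.53, 7.67 and 6.20 in diabetic and 6.31, 6.84 and 7.20 in nondiabetic cells. Gzmc, a granzyme gene, followed Il2rb with r = 0.83. It read 9.35 on diabetic replicate 2, 8.63 on diabetic replicate 1 and less on diabetic replicate 3, against 8.67 to 8.81 in nondiabetic cells. The part of NK cells in these values was not tested, and Klrd1 and Gzma stayed under the limit on that array too, at 4.15 and 4.25.

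Il7r followed genes of basophils and mast cells most closely, and Prf1 followed them less closely. The mean of 11 tested basophil and mast cell markers correlated with Il7r at r = 0.95 over the 6 arrays and with Prf1 at r = 0.80. Prf1 correlated more highly with the mean of 15 genes common to leukocytes, at r = 0.84, and at r = 0.73 with that of lymphoid progenitor markers. The basophil and mast cell mean lay between 8.61 and 8.96 in diabetic and between 8.29 and 9.17 in nondiabetic cells. Its r with Ctsw was 0.12. Hdc, which makes histamine, stood at 10.43, 10.69 and 10.49 in diabetic and 10.22, 9.96 and 10.83 in nondiabetic cells, and its r with Il7r was 0.98. Fcer1a, the alpha chain of the IgE receptor, followed Il7r with r = 0.95. It stood at 8.05, 8.47 and 8.63 in diabetic and at 8.31, 7.38 and 9.02 in nondiabetic cells. Gzmb, the granzyme that cleaves caspases, stood at 8.68, 9.32 and 8.48 in diabetic and 8.40, 7.81 and 9.22 in nondiabetic cells, with r = 0.91 to Il7r. In each of Il7r, Hdc, Fcer1a and Gzmb nondiabetic replicate 2 was the lowest array. Il7r also followed the 15 genes common to leukocytes (r = 0.89), while its r with 20 endothelial markers was -0.68. Its r was 0.70 with T and NK markers and 0.24 with lymphoid progenitor markers. Nondiabetic replicate 3, the highest array in Il7r, was the highest in 9 of the 11 basophil and mast cell markers, but Kit was lowest there, at 6.64. The part of basophils or of the leukocyte share in these values was not tested.

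**Figure D4:**
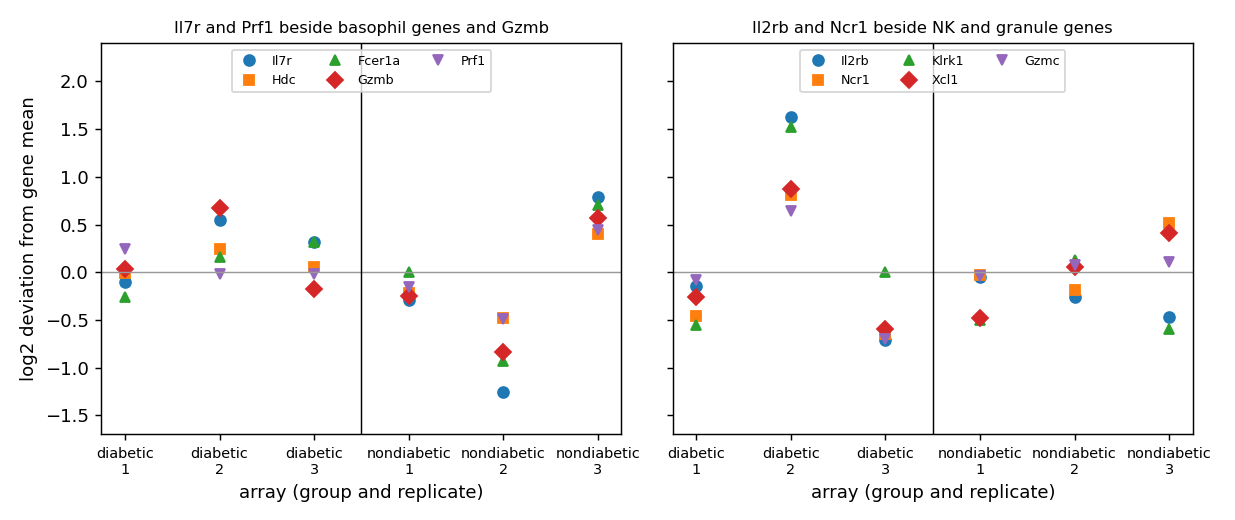
Deviation from the gene's mean over 6 arrays (log2, vertical axis) on each array (horizontal axis, diabetic left of the line), for Il7r, Prf1, the basophil genes Hdc and Fcer1a, and Gzmb (left panel) and for Il2rb, Ncr1, Klrk1, Xcl1 and Gzmc (right panel). Nondiabetic replicate 2 is low and nondiabetic replicate 3 high in all 5 genes of the left panel, and diabetic replicate 2 is the highest array for the 5 genes of the right panel.

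The genes with values most like those of Ctsw over the 6 arrays were sought among all 13308 tested genes. All lists together held 198 of these. That the genes named next are on no lymphocyte list therefore says little about lymphocyte genes. After 1 predicted gene, clone name or small RNA was passed over, the 8 with the highest r were Cdkl1, Rab35, Alkbh3, Leo1, Hibch, B3gnt5, Pskh1 and Ldhb, with r between 0.97 and 0.99. Cdkl1, a kinase gene, stood at 6.84, 6.61 and 6.95 in diabetic and 5.80, 6.05 and 5.85 in nondiabetic cells, and its r with Ctsw was also 0.97 for the deviations from the group means. For the other 7 the r of the deviations lay between -0.13 and 0.86. An r over 0.9 with Ctsw was reached by 104 tested genes, and any gene with separate groups and little spread within them scores high. Lists of markers of other cells were averaged over all their measured genes, whatever their level, since 3 of 10 tested B cell precursor markers had a group mean under the limit for dim genes. The mean of 17 B cell precursor markers stood between 5.66 and 5.98 in diabetic and between 5.49 and 5.63 in nondiabetic cells, a narrow gap, with 10 of the 17 higher in diabetic cells and a median difference of 0.12. The mean of 17 neutrophil markers, between 6.30 and 6.40 in diabetic and between 6.06 and 6.32 in nondiabetic cells, overlapped. Over the 11 tested neutrophil markers alone it did not, at 7.49 to 7.59 in diabetic and 7.04 to 7.33 in nondiabetic cells. The mean of 16 monocyte markers overlapped, between 6.90 and 7.15 in diabetic cells and up to 6.94 in nondiabetic cells. Of the 16, 15 were higher in diabetic cells. The mean of 18 T and NK markers lay between 5.22 and 5.59 in diabetic and between 5.22 and 5.38 in nondiabetic cells. Its difference was 0.06, while the median over its genes was -0.01. Ctsw was chosen for its group difference and spreads little within groups, so r with it mostly restates how far a list's groups stand apart. For tested genes, list means differed by 0.38 in B cell precursor, 0.36 in neutrophil and 0.03 in T and NK markers. Over tested genes, r between Ctsw and the list mean was 0.85 for B cell precursor and 0.83 for neutrophil markers. It was 0.76 for both lymphoid progenitor and monocyte markers, and -0.06 for T and NK markers. For the other marker lists r lay between -0.11 (erythroid) and 0.45 (genes common to leukocytes). The part of these cells in the Ctsw difference was not tested.

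Ctsw was then set beside its own protease family. Of 9 tested cysteine cathepsin genes, 8 had a higher and 1 a lower mean in diabetic cells, with a median difference of 0.53 where the median of all 13308 tested genes was 0.02. Without Ctsw, 7 of 8 were higher, with a median of 0.46. With single arrays left out the median of the 9 lay between 0.35 (without diabetic replicate 1) and 0.70 (without diabetic replicate 3). Of the 9, 0 passed the adjusted limma test, and of the 8 other than Ctsw, Ctsl and Ctsh had an unadjusted p under 0.05, as did 4.25% of all tested genes. Ctsl, a lysosomal endopeptidase, stood at 11.23, 10.52 and 10.31 in diabetic and at 9.95, 10.06 and 10.17 in nondiabetic cells. Its groups were separate, with a difference of 0.62 (SE 0.24, adjusted p = 0.997). Ctsh, an aminopeptidase, was separate too, at 6.13, 6.20 and 5.68 in diabetic and 5.58, 5.33 and 5.51 in nondiabetic cells, a difference of 0.53 (SE 0.19). Among all tested genes, 5.28% had every diabetic array above every nondiabetic array. Ctsb differed by 0.56 (SE 0.25), at 9.98, 9.37 and 9.19 in diabetic and 9.29, 8.92 and 8.66 in nondiabetic cells. Ctsf was the family member with lower values, and its difference was -0.41 (SE 0.26). The monocyte markers, whose cells are rich in lysosomes, had a higher mean in diabetic cells in 12 of 13 tested genes, with a median of 0.36, and their part in the cathepsin values was not tested.

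The lists of granule, receptor, cytokine and transcription factor genes around the 10 were counted in the same way, and no list was tested against another. Leaving Ctsw aside, 0 genes of these 5 lists passed limma's test, whether its p was adjusted or not, and the adjusted p of each gene given below with a difference was 0.997. Of 20 tested cytotoxic granule genes, 12 were above and 8 below the nondiabetic mean in diabetic cells, with a median of 0.02 (-0.03 to 0.12 with single arrays left out). Tnfsf10, the death ligand TRAIL, differed by -0.48 (SE 0.25), and Ctsc, the protease that activates granzymes, by 0.57 (SE 0.33). The proteoglycan gene Srgn and the lysosomal membrane gene Lamp1 differed by -0.06 (SE 0.15) and 0.05 (SE 0.15). Of 12 tested NK receptor and adaptor genes, 7 were above and 5 below, with a median of 0.02 (-0.10 to 0.15). Slamf7 differed by 0.61 (SE 0.35), Fcer1g by 0.34 (SE 0.21), the Fc receptor gene Fcgr3 by -0.23 (SE 0.16) and the adaptor gene Tyrobp by 0.03 (SE 0.22). A further 12 measured genes of this list were dim.

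Of 12 tested genes of the T cell receptor and its signaling, 8 were above and 4 below, and 13 measured genes were dim. The median was 0.18, but 0.02 without nondiabetic replicate 2 and 0.36 without nondiabetic replicate 3. The glycoprotein gene Thy1 read 7.04, 7.59 and 7.32 in diabetic and 6.01, 6.10 and 7.54 in nondiabetic cells. Its groups overlapped through nondiabetic replicate 3, and the difference was 0.77 (SE 0.39). Cd4 differed by -0.25 (SE 0.17) and the adaptor genes Skap1, Lcp2 and Lat by 0.34, 0.23 and -0.02.

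Among 23 tested genes of the common gamma chain receptors, their ligands and their signaling, 12 were above and 11 below, with a median of 0.0092 (-0.01 to 0.12 with single arrays left out). Il15, whose product signals through Il2rb, stood at 7.36, 7.27 and 7.37 in diabetic and 7.14, 7.02 and 7.24 in nondiabetic cells. Its groups did not overlap, with the diabetic arrays higher, as in 5.28% of all tested genes. The difference was 0.20 (SE 0.15). Il15ra and Il12rb2 differed by 0.26 (SE 0.17) and 0.36 (SE 0.21), Jak1 by 0.19 (SE 0.19) and the survival gene Mcl1 by -0.04 (SE 0.17). Of 16 tested transcription factors of lymphoid cells, 12 were above and 4 below, with a median of 0.14. It was 0.04 without nondiabetic replicate 1, 0.05 without nondiabetic replicate 2 and 0.33 without nondiabetic replicate 3. Gata3, a factor of T cells and innate lymphoid cells, stood at 7.10, 7.35 and 7.11 in diabetic and 6.59, 6.87 and 7.08 in nondiabetic cells. Its difference was 0.34 (SE 0.18). Bcl11b, Runx3, Stat4 and Ets1 differed by 0.34, 0.31, 0.15 and -0.24. Over all tested genes, 54.0% had a higher mean in diabetic cells.

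**Figure D5:**
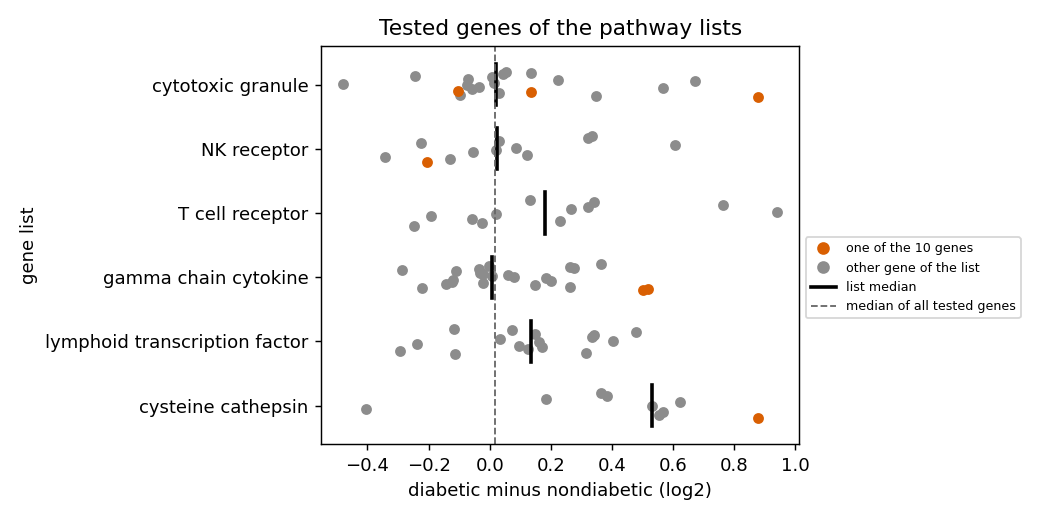
Difference between diabetic and nondiabetic means (log2, horizontal axis) of every tested gene of 6 lists (vertical axis), with the described genes in orange, the list median as a black bar and the median of all tested genes, 0.02, as a dashed line. The medians lie between 0.0092 and 0.18 for 5 lists and at 0.53 for the cysteine cathepsins.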

How the data were processed

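RNA of sorted bone marrow endothelial cells was amplified (Ovation Pico WTA) and hybridised to arrays, per the labels' protocols. The deposited table holds the authors' log2 values after RMA, per the submitters' processing notes, and no version of it is given in the sources used here. RMA gives the arrays near-equal distributions (medians 5.21 to 5.28), and the number of arrays, 6, limits the precision. Of 41345 probe sets, 23521 named 1 gene in the supplied platform annotation, which can be old, and 1814 named several. Each of 22180 genes took its brightest probe set by the mean over the 6 arrays. A fit without covariates (limma 3.58.1, R 4.3.3, lmFit and eBayes) covered the 13308 genes at or above the 40th percentile, with Benjamini-Hochberg adjustment over all of them and a threshold of 0.05. The fit was tested on simulated data with 3 arrays a group and 200 of 13308 genes changed. It recovered 34.8% of changes of 1 log2 and 89.4% of changes of 2 log2, with 5.56% and 4.99% of calls false. Differences are diabetic minus nondiabetic, and intervals are not adjusted.

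The 10 genes, the lists and the naming rule were chosen with earlier results of these data known. The rule named the 10 genes, in each pathway list the 3 tested genes with the smallest p and the 2 with the highest mean, in each marker list 1 of each kind, and the 8 genes most like Ctsw apart from predicted genes, clone names and small RNAs. Other named genes were chosen after their values were seen (Cd3d, Cd3g, Zap70, Klrk1, Xcl1, Gzmc, Hdc, Fcer1a, Ctsf, Fibp, Cd5 and Rabggtb). Means of marker lists over all measured genes were added after the data were seen.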

Additional observations from a re-analysis of the deposited data

How the results depend on the processing

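Alternatives were no filter or one at the 60th percentile, averaging or separating probe sets, a further quantile normalization or centring on medians, trended robust eBayes, array weights, leaving out single arrays and a replicate block. The count of called genes, 1, became 0 with the stricter filter, at which 284 genes were higher and 86 lower at an unadjusted limma p under 0.05. It lay between 0 and 1 with single arrays left out, and the 0 came without nondiabetic replicate 3 (485 higher and 203 lower unadjusted). The replicate numbers did not pair the arrays (r of deviations -0.04, -0.06 and 0.02 for equal numbers), and the replicate block left 1 call. Of the tested members, 4 had a higher mean in diabetic cells, 4 with the block, 3 to 6 with single arrays left out, and 1 with the filter at the 60th percentile, which left Ctsw, Prf1 and Il2rb untested. Under all 15 alternatives 0 pathway genes were called. The Ctsw difference lay between 0.80 (array weights) and 0.94 under the 14 alternatives that gave it, and that of Il7r between 0.0012 and 1.02. Prf1, Nkg7, Ncr1 and Il2rb changed sign within ranges of -0.08 to 0.39, -0.32 to 0.18, -0.66 to 0.35 and -0.17 to 1.28, the last upper values of Ncr1 and Il2rb coming with array weights. The cathepsin median lay between 0.35 and 0.70, that of the transcription factors (0.14) between 0.04 and 0.33, the highest without nondiabetic replicate 3, and that of the T cell receptor genes (0.18) between 0.02 and 0.36. The causes were not tested. For the 4 dim genes only no filter and leaving out arrays gave values.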

Other observations

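The remaining genes of the marker lists are given as values, with an adjusted limma p of 0.997 for each and 0 calls in any list. Stab2, a scavenger receptor of sinusoidal endothelium, averaged 9.17 in diabetic and 8.08 in nondiabetic cells, a difference of 1.09 (SE 0.24), while 6 of 20 endothelial markers were higher and their median was -0.07. Among lymphoid markers, Dntt, the polymerase of early lymphoid cells, differed by 0.90 (SE 0.25) with a nondiabetic mean of 4.82, under the limit for dim genes, Jchain by 0.23 (SE 0.31), Mef2c by -0.35 (SE 0.23) and the chemokine gene Ccl5 by 0.67 (SE 0.40). Of 10 measured lymphoid progenitor markers 6 were higher, with list means between 6.92 and 7.14 in diabetic and between 6.62 and 6.89 in nondiabetic cells. The monocyte genes Ms4a6c and Ly6c2 differed by 0.68 (SE 0.19) and 0.33 (SE 0.25), and the neutrophil genes S100a9 and Mpo by 0.58 (SE 0.23) and 0.26 (SE 0.18). Il6ra, of the basophil and mast cell list, differed by 0.66 (SE 0.18), and the leukocyte genes Laptm5 and Cd52 by 0.53 (SE 0.19) and 0.11 (SE 0.17). The platelet genes Gp6 and Ppbp differed by 0.58 (SE 0.39) and 0.07 (SE 0.31). Of 11 megakaryocyte markers, 11 had a higher mean in diabetic cells, with a small median difference of 0.09. Their list means overlapped, between 7.92 and 8.87 in diabetic and between 7.76 and 8.67 in nondiabetic cells, highest on replicate 3 of each group. The erythroid genes Hemgn and Car1 differed by -0.80 (SE 0.20) and -0.09 (SE 0.29), with 5 of 10 erythroid markers higher.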
